A study of Mus musculus with 20 samples.

Results

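The regenerating islet-derived (Reg) family of C-type lectins was followed in 20 poly(A) RNA-seq libraries of Nsun6-KO and wild type (WT) mice. The members were the 6 rows of the count table whose gene name was Reg1, Reg2, Reg3a, Reg3b, Reg3g or Reg4, out of 55401 genes, and none was chosen by its values. Nsun6 encodes an RNA cytosine methyltransferase, and the KO allele was made with CRISPR/Cas9 in C57BL/6J zygotes by removing exons 3 and 4 in every tissue. Females aged 8 weeks, with no treatment named, gave 5 organs (heart, kidney, liver, spleen and small intestine), each with 2 WT and 2 KO libraries, numbered 1 and 2. The labels named neither the animals behind the libraries nor the stretch of small intestine taken, so p-values measure the spread between these libraries.

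Reg proteins are small secreted lectins. REG3B and REG3G are made by enterocytes and Paneth cells, bind bacterial surface sugars and lipids, and keep microbes away from the epithelium; their genes are induced by microbial signals through MyD88 in epithelial cells and by IL-22 through STAT3. REG1 and REG2 were first described in the pancreas, and Reg4 marks enteroendocrine and deep crypt secretory cells. The family is known for unequal expression along the length of the gut.

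Of the 6 members, 5 lie with the related gene Reg3d in a 98.2 kb cluster on chromosome 6 (GRCm38, 78370657 to 78468872), in the order Reg3b (ENSMUSG00000071356, 78370657-78373466, plus strand), Reg3d, Reg3a (ENSMUSG00000079516, 78380709-78383827, plus), Reg2 (ENSMUSG00000023140, 78395623-78408106, plus), Reg1 (ENSMUSG00000059654, 78422711-78428667, plus) and Reg3g (ENSMUSG00000030017, 78466269-78468872, minus). Reg4 (ENSMUSG00000027876) lies apart, on chromosome 3 at 98222156-98236748 on the plus strand. Each principal transcript has 6 exons, and the coding sequences are 471 to 525 bases long. The closest coding pair was Reg1 and Reg2, with 78.8% identity over the aligned columns, followed by Reg3b and Reg3g with 76.0%, Reg3a and Reg3b with 73.9% and Reg3a and Reg3g with 73.2%. No pair of the 7 genes shared a coding window of 50 bases (0 shared windows in every pair), although shorter shared stretches could still misplace a few reads.

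The promoters of the 3 most abundant members are shown because Reg3b and Reg3g, which sit at opposite ends of the cluster on opposite strands, moved together in the libraries below while Reg1 did not. The sequences are from RefSeq (GRCm38.p6), which held all 6 members, and run 5′ to 3′ from 150 bases before the annotated start through the first 10 transcribed bases, at chr6:78370735-78370894 on the plus strand (Reg3b), chr6:78468865-78469024 on the minus strand (Reg3g) and chr6:78425833-78425992 on the plus strand (Reg1). Capitals mark the letters TATAAAA and, in Reg3b and Reg3g, the longest run that the pair shares.
Reg3b: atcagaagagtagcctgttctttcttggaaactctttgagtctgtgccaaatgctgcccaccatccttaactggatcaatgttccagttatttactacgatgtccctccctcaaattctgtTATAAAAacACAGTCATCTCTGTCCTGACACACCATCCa
Reg3g: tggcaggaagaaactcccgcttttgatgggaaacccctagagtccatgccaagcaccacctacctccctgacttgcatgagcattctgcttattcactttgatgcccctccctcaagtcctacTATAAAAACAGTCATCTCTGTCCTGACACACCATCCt
Reg1: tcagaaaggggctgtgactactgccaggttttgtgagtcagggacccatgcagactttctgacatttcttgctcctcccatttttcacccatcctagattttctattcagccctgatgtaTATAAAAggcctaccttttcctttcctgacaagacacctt
The shared run was 29 bases long and began 20 bases before the start in both genes, directly after TATAAAA in Reg3g and 2 bases after it in Reg3b. Over the whole 300-base windows the Reg3b and Reg3g promoters had 68.1% identity, the highest of the pairs among the 7 genes, while Reg1 had 50.8% with Reg3b and 51.7% with Reg3g. TATAAAA, searched on both strands, began 29 bases before the start in Reg3b, 27 in Reg3g, and 30 in both Reg1 and Reg2, and was not found in Reg3a, Reg3d or Reg4; 5.48% of the 32851 RefSeq promoters of this length held it. The STAT-type letters TTCNNNGAA were found in Reg3b, 129 bases before the start, and in Reg3d, and in 8.30% of all promoters. The GATA-type letters AGATAA were found in Reg4 only among the 7 genes and in 11.2% of all promoters, and the CDX-type letters TTTATG in Reg3a and Reg3b and in 11.9%, both searched on both strands. These are matches of letters and not measured binding.

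Library totals were 15897446 to 44508197 counts, and 26414043 to 32121286 in the small intestine. Levels are given as CPM, the count divided by the total count of the library and scaled to 1000000, and levels of different genes are compared as TPM, on the same scale after division by exon length. Nsun6 itself stood at 10.5 and 5.49 CPM in the WT and at 9.80 and 4.81 CPM in the KO small intestine; the whole-gene count includes the exons that the KO allele keeps, so it does not check the genotype. Defining markers were highest in the labelled organ for liver (Alb), kidney (Umod) and heart (Myh6).

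In the small intestine some members were among the most abundant messages, and which ones differed between libraries. Together the 6 genes took 4.90% of all counts in WT 1, 1.57% in WT 2, 0.781% in KO 1 and 0.822% in KO 2. The 95% Wilson interval in WT 1 was 4.89 to 4.90, for counting error only and with counts taken as independent. Reg3b and Reg3g ranked 1 and 2 among all genes by count in WT 1, and Reg1 ranked 1 in WT 2. In KO 1 Reg3b ranked 5, and in KO 2 Reg1 ranked 5. Elsewhere the same genes ranked far lower: Reg1 10106 in WT 1 and 10487 in KO 1, and Reg3b 2671 and Reg3g 5573 in KO 2. The best rank of Reg4 was 1005, of Reg3a 2458 and of Reg2 15625.

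Reg3b, whose product binds Gram-negative and Gram-positive bacteria, had 33556 CPM in WT 1, 2026 in WT 2, 6265 in KO 1 and 73.7 in KO 2. Reg3g, whose product kills Gram-positive bacteria, had 15253 CPM in WT 1, 660 in WT 2, 1280 in KO 1 and 27.3 in KO 2. Both genes had the same order of the 4 libraries, with WT 1 highest and KO 2 lowest, and spanned over 2 orders of magnitude. The ratio of Reg3b to Reg3g counts stayed between 2.20 (WT 1) and 4.90 (KO 1), with 3.07 in WT 2 and 2.70 in KO 2.

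Reg1 had 12887 CPM in WT 2 and 7964 in KO 2, against 7.16 in WT 1 and 5.36 in KO 1. The libraries numbered 2 were thus high and those numbered 1 low, whatever the genotype, a separation in this direction that 18.8% of the 17680 genes tested had. Reg3d, which is no member, had 4.39 and 1.14 CPM in WT 1 and KO 1 against 0.458 and 0.379 in WT 2 and KO 2, the opposite separation, which Reg3a, Reg3b and Reg3g shared with 39.4% of genes. The level of Reg3a was 83.9 CPM in WT 1, 45.5 in WT 2, 61.1 in KO 1 and 35.8 in KO 2, the narrowest fold range of the 5 members that passed the filter on low counts. For Reg4 it was 52.3 and 108 CPM in the WT libraries, and the KO libraries had 196 and 122, so both KO libraries were above both WT libraries, as in 14% of genes tested; none of the 5 members tested had both KO below both WT libraries, an order that 9.2% of genes tested had. Reg2 was close to absent, at 4 (WT 1), 14 (WT 2), 2 (KO 1) and 0 (KO 2) counts, with both KO below both WT libraries, and it did not pass the filter on low counts. A count of 0 in KO 2 allows up to 0.114 CPM, with counts taken as independent.

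**Figure D1:**
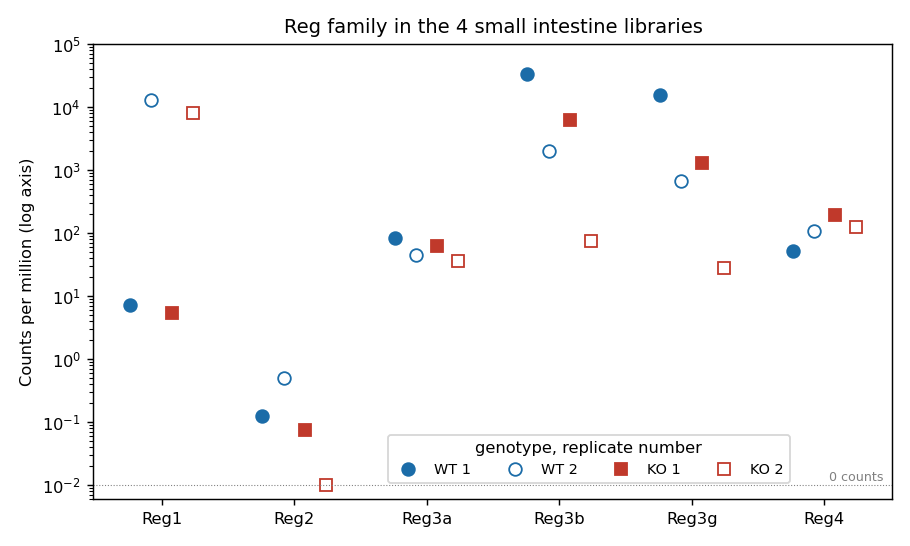
Level of each Reg family member in the 4 small intestine libraries, in CPM on a log axis (circles WT, squares KO, filled number 1, open number 2; a count of 0 is drawn at 0.01). Reg3b and Reg3g lie highest in WT 1 and lowest in KO 2, Reg1 separates by number (7964 and 12887 against 5.36 and 7.16), and Reg3a and Reg4 stay between 35.8 and 196.

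Per length, the order of the members differed between the libraries. In WT 1 the level of Reg3b was 76543 TPM, followed by Reg3g at 18795, Reg3a at 265, Reg4 at 133, Reg1 at 20.6 and Reg2 at 0.341. In KO 1 the order was Reg3b (15668 TPM), Reg3g (1729), Reg4 (549), Reg3a (211), Reg1 (16.9) and Reg2 (0.220). In WT 2 Reg1 came first at 35028 TPM, ahead of Reg3b (4358), Reg3g (767), Reg4 (260), Reg3a (136) and Reg2 (1.27). In KO 2 Reg1 (22400 TPM) was followed by Reg4 (305), Reg3b (164), Reg3a (110) and Reg3g (32.8). The exon length used for Reg3g, 2114 bases, exceeds its principal transcript of 771 bases, so its TPM is understated beside that of Reg3b (1142 and 783 bases). With 2 libraries per group, Reg3a and Reg4 in TPM did not keep their order between libraries, and neither did Reg1 and Reg3b.

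Reg1, Reg3b and Reg3g split by replicate number in the small intestine, which is no comparison of the study. The number carried markers of gut position: Fabp6, the ileal bile acid binding protein, had 7295 and 6339 CPM in WT 1 and KO 1 against 0.21 and 0.38 in WT 2 and KO 2, and Onecut2, a duodenal transcription factor, had 0.65 and 1.06 against 396 and 368. All 8 genes of the distal list were called lower and all 8 of the proximal list higher in number 2, in edgeR's quasi-likelihood test with a genotype term (called is a Benjamini-Hochberg adjusted p below 0.1 and more than a 2-fold change). The labels give no position, so position and any other difference between the numbers cannot be told apart.

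In that test, 3 members were called, where 7.64% of the 17680 genes tested were called, 4.52% higher and 3.11% lower in number 2. Reg1 was higher by 10.90 on the log2 scale (SE 0.50, adjusted p 0.01), with 1800-fold in the WT pair and 1486-fold in the KO pair. Reg3g was lower in number 2, with a log2 change of -4.81 (SE 0.48, adjusted p 0.0278), 23.1-fold in the WT pair and 46.9-fold in the KO pair. Reg3b was also lower, at -5.00 (SE 0.83, adjusted p 0.0681), 16.6-fold in the WT and 85.0-fold in the KO pair. Reg3a (-0.60, SE 0.18, adjusted p 0.175) and Reg4 (0.41, SE 0.51, adjusted p 0.696) were not called; Reg3a was lower in number 2 in both pairs, by 1.84-fold and 1.71-fold, and Reg4 was 2.07-fold higher in the WT pair and 1.60-fold lower in the KO pair. The Reg1 call was kept in all 8 alternatives. Without a genotype term Reg3b and Reg3g lost their calls (adjusted p 0.285 and 0.291), as they did when any 1 of the 4 libraries was left out of such a fit, and Reg3b was at an adjusted p of 0.116 in DESeq2.

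Among markers of cells that make Reg proteins, Paneth cell and some enteroendocrine genes moved with the number too, while most enterocyte genes were not called. Of the 10 Paneth cell genes, 8 were called lower in number 2 and none higher, with a list median of -3.04 on the log2 scale against -0.03 over all genes tested; Defa24, an alpha-defensin, had 1605 and 1013 CPM in number 1 and 119 and 200 in number 2. The 8 goblet cell genes had no call and a median of -0.66, and the 8 enterocyte genes had 1 call higher and 2 lower with a median of 0.07. Of the 7 enteroendocrine genes tested, 3 were called higher, among them Gip at 1.09 and 0.84 CPM in number 1 and 67.7 and 99.6 in number 2. Whether the number of such cells or the RNA per cell differed cannot be told apart in bulk tissue.

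**Figure D2:**
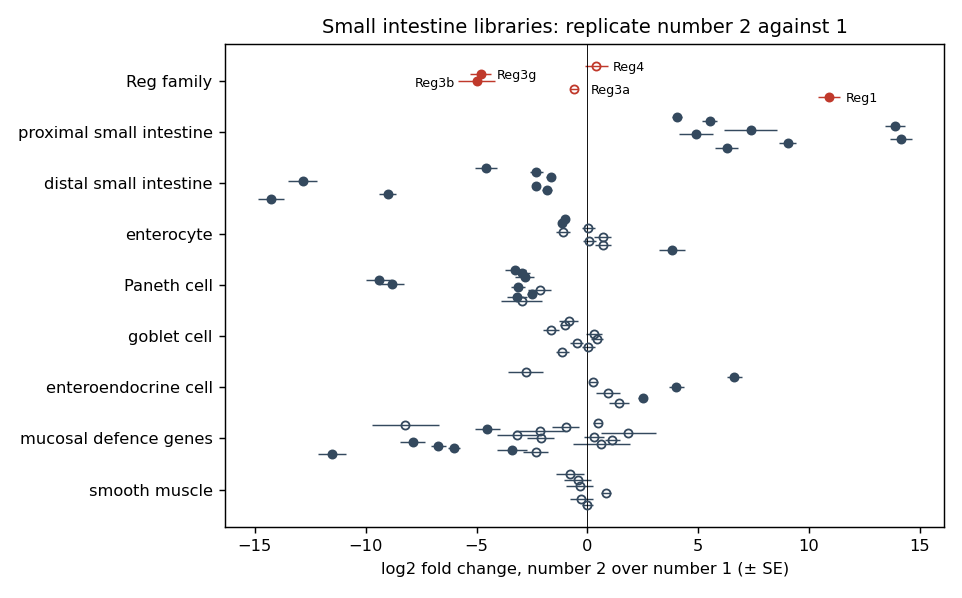
Log2 fold change of number 2 over number 1 in the small intestine, with SE from edgeR, for the 5 Reg family members tested and 8 gene lists (filled points were called, open points were not). Reg1 at 10.90 lies on the side of the proximal genes, and Reg3b at -5.00 and Reg3g at -4.81 lie on the side of the distal, Paneth cell and several mucosal defence genes.

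Other mucosal defence genes were compared because they share inducers with Reg3b and Reg3g. Of the 21 genes on that list, 17 were tested, 6 were called lower in number 2 and none higher, with a list median of -2.34. These 6 were Saa1, an acute phase protein (987 and 53.5 CPM in WT 1 and KO 1, 0.18 and 0.08 in WT 2 and KO 2), Nos2, the inducible nitric oxide synthase (274 and 23.8 against 0.60 and 0.23), the epithelial oxidase Duox2 (386 and 1324 against 4.68 and 19.04) with its maturation factor Duoxa2, Tifa and Fut2. Saa1 and Nos2 followed the order of Reg3b and Reg3g, with WT 1 highest and KO 2 lowest, while Duox2 was highest in KO 1. Of the 29 genes of cytokine and microbe sensing upstream of Reg3 genes, 23 were tested, with 2 called higher (Il18 and Ahr) and 1 lower (Socs3, an inhibitor and target of STAT3 signalling, 104 and 52.5 CPM in number 1 and 35.9 and 18.3 in number 2). Il22 had 0.56 CPM in WT 1 and a count of 0 in the other three libraries, and Il17a had 0.68 and 0.14 CPM in WT 1 and WT 2 and a count of 0 in both KO libraries. Extl3, a receptor proposed for Reg proteins, had 7.34 to 13.7 CPM in the 4 libraries and was not called in either small intestine comparison.

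KO was then compared with WT in the small intestine, the comparison that asks whether loss of Nsun6 alters the level of these messages. No member was called, and 0 of 17680 genes tested (0%) were called in all, with 422 at an unadjusted p below 0.05; DESeq2 called 51 genes and no member. Reg3g had 7956 ± 10319 CPM in WT (mean ± SD, n = 2) and 654 ± 886 in KO, a log2 change of -3.59 (SE 2.25, adjusted p 0.9999). Reg3b had 17791 ± 22295 CPM in WT and 3169 ± 4378 in KO, a log2 change of -2.48 (SE 2.25, adjusted p 0.9999). For both genes the difference between the genotype means was smaller than the SD of the WT libraries and larger than that of the KO libraries. Each SD includes the split between numbers 1 and 2. Reg1 (-0.76, SE 3.48), Reg3a (-0.43, SE 0.38) and Reg4 (0.90, SE 0.54) had the same adjusted p of 0.9999.

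Compared within a number, Reg3b and Reg3g had lower values in KO each time. Reg3g was 11.9-fold lower in KO 1 than in WT 1 and 24.2-fold lower in KO 2 than in WT 2, and Reg3b was 5.36-fold and 27.5-fold lower. These 2 members were among the 46 of 17680 genes tested (0.26%) for which KO was over 4-fold lower than WT within both numbers, on log2 ratios of CPM plus 0.1. Ordered by the smaller of the paired changes, Reg3g ranked 2 and Reg3b ranked 17 of these 46. The 46 also held antibody and T cell receptor segments, such as Igkv6-23, ranked 4, and Trbv1, ranked 5. Igkv6-23 had 15.7 and 52.1 CPM in WT 1 and WT 2 and 0.477 and 5.38 in KO 1 and KO 2. Trbv1 had 1.28 and 0.775 CPM in WT 1 and WT 2 and 0 in KO 1 and KO 2. The part of immune cell content in the Reg3b and Reg3g ratios was not tested. Reg1 was 1.34-fold and 1.62-fold lower in KO and Reg3a 1.37-fold and 1.27-fold lower, and Reg4 was 3.76-fold and 1.13-fold higher. Being lower within both numbers was common, at 23.3% of genes tested, and being higher within both at 29.9%. With 1 library per genotype and number these ratios have no replicate check. Gut position markers also differed within a number. Fabp1 of the proximal list had 11.6 CPM in WT 1 and 140 in KO 1, and Cubn of the distal list had log2 ratios of 1.25 and 1.42. The list medians were smaller, at 0.70 (proximal) and 0.30 (distal) in number 1 and 0.14 and 0.11 in number 2. The part of gut position in the Reg3b and Reg3g ratios was not tested. The replicate number as a block left no member called (0), with an adjusted p of 0.690 for Reg3g.

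**Figure D3:**
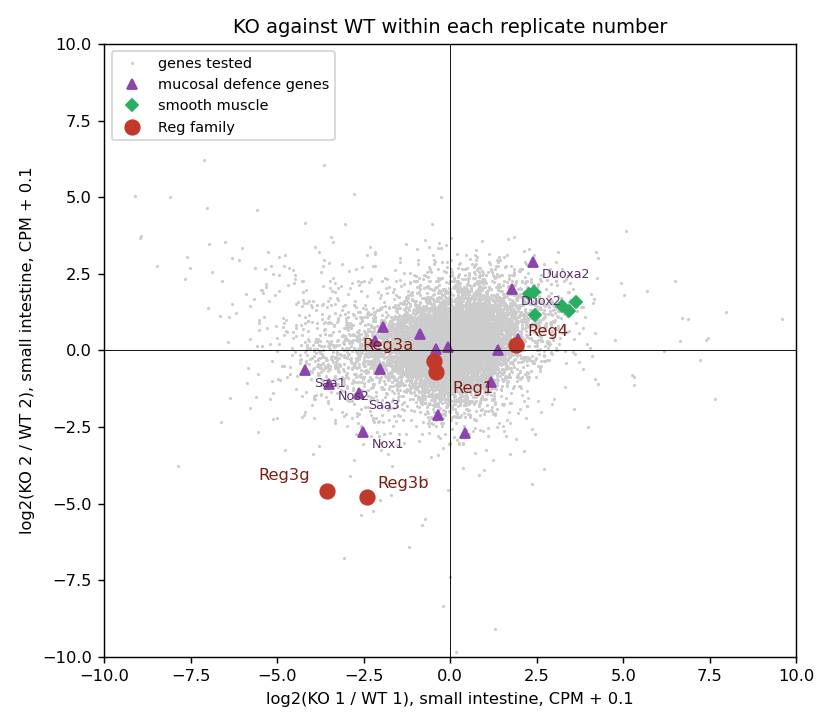
Log2 ratio of KO over WT in the small intestine within number 1 (horizontal) and number 2 (vertical), on CPM plus 0.1; grey points are the 17680 genes tested. Reg3g (-3.58 and -4.59) and Reg3b (-2.42 and -4.78) lie at the lower left edge, Reg1 and Reg3a near the centre, Reg4 to the right (1.91 and 0.18), and the smooth muscle genes at the upper right.

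Of the cell type lists, the smooth muscle list had the largest median change of KO against WT, 2.27 on the log2 scale. None of its 6 genes was called. All 6 smooth muscle genes were over 2-fold higher in KO within both numbers, as were 3.4% of genes tested, and their summed level was 305 and 398 CPM in WT 1 and WT 2 and 2484 and 1257 in KO 1 and KO 2, with Des at 76.7 and 99.5 against 715 and 275. The summed enterocyte level was 14926 (WT 1), 23437 (WT 2), 21901 (KO 1) and 22968 CPM (KO 2), and that of the Paneth cell list 8023, 369, 3857 and 769 CPM in the same order, so the Paneth list was lower in KO within number 1 and higher within number 2. The goblet cell sum was 18456, 12254, 12348 and 10068 CPM. The part of tissue composition in the Reg3b and Reg3g values was not tested. Of the 17 mucosal defence genes tested, Nos2, Saa3 and Nox1 were over 2-fold lower in KO within both numbers and Duox2 and Duoxa2 over 2-fold higher, where 1.3% of all genes tested were over 2-fold lower within both; none of the 17 was called.

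Expression across organs was compared next. Of the 6 members, 5 were called higher in the small intestine than in the mean of the other 4 organs, and Reg2 did not pass the filter. Of the 23159 genes tested, 40.5% were called, 24.6% higher. Reg1, Reg3a and Reg4 had at most 0.305, 0.115 and 0.166 CPM in any other organ, so they passed the filter only through the small intestine. Their calls, adjusted p and separation were in part fixed by that filter and are no independent support for a difference. For Reg4, the lowest small intestine library (52.3 CPM) was 314-fold above the highest library of another organ (0.166 CPM), and for Reg3a 310-fold (35.8 against 0.115 CPM). Reg1 was 17.6-fold apart by the same measure, Reg3b 4.29-fold and Reg3g 4.04-fold. All 4 small intestine libraries lay above all 16 others for these 5 members, as for 6.79% of genes tested. The smallest adjusted p among them was 8.72e-09 for Reg4 and the largest 1.52e-05 for Reg1 (edgeR). Both are members that passed the filter only through the small intestine, so these values are no support for a difference. Fold changes from the fit are not given because Reg3a was at 0 counts in 14 of the 16 other libraries, Reg4 in 11, Reg1 in 10, Reg3b in 6 and Reg3g in 3.

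**Figure D4:**
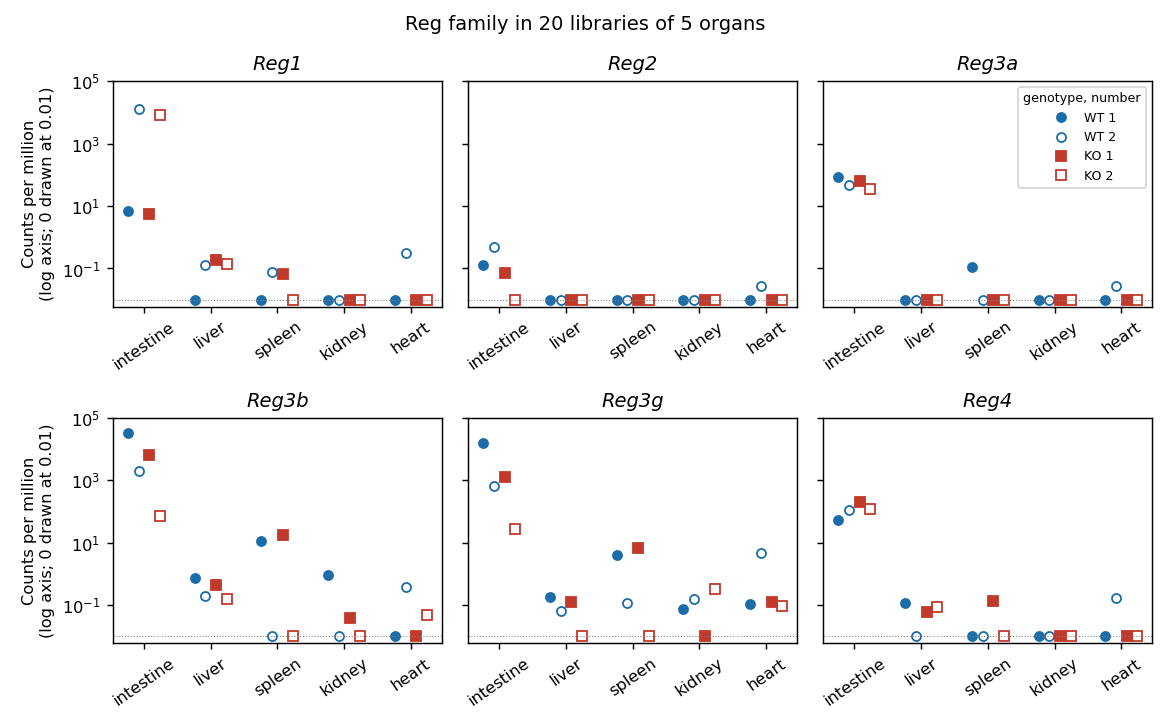
Level of each member in all 20 libraries, in CPM on a log axis with 0 drawn at 0.01 (circles WT, squares KO, filled number 1, open number 2). Outside the small intestine, Reg3b and Reg3g reached 17.2 and 6.76 CPM in the spleen libraries numbered 1, and Reg3g reached 4.79 CPM in the heart library WT 2.

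In the spleen Reg3b had 388 counts in WT 1 and 517 in KO 1, and 0 in WT 2 and in KO 2, while Reg3g had 137, 203, 3 and 0. Both libraries numbered 1 were above both numbered 2, as they were for 16.3% of the 18834 genes tested in spleen. The Reg3b level was 0.0562% in WT 1 and 0.0864% in KO 1 of its mean level in the small intestine libraries numbered 1, and that of Reg3g 0.0478% and 0.0817%. The shares of intestinal genes in the same libraries varied. Fabp6 had 0.0440% and 0.106%, and Defa24 0.0551% and 0.0915%. Clca1, a goblet cell protein, had 0.0349% and 0.0482%, and Sis, the brush border sucrase-isomaltase, 0.0168% and 0.02395%. Zg16 lay higher, at 0.0985% and 0.156%. Defa30 had 0.00710% and 0.0656%, Ang4 0.0244% and a count of 0, and Fgf15 a count of 0 in each. In WT 2 and KO 2 of the spleen Defa24, Clca1 and Sis were at 0 counts, whereas Fabp2, Slc10a2 and Zg16 had 90, 36 and 69 counts in WT 2. Spleen WT 2 also had the liver marker Alb at 4109 CPM, against 5.54 in WT 1, 137 in KO 1 and 202 in KO 2. The source of the Fabp2, Slc10a2 and Zg16 counts in WT 2 was not tested. The part of intestinal transcripts in the spleen values of Reg3b and Reg3g was not tested either. No difference between KO and WT spleens was called, with log2 changes of 0.69 (SE 3.68) for Reg3b and 0.80 (SE 3.01) for Reg3g and an adjusted p of 0.9999 for both, where 0.223% of genes were called. The change in Reg3g between KO and WT in the small intestine less that in the spleen was -4.29 (SE 2.97, adjusted p 0.99996), and that of Reg3b -3.08 (SE 3.22, adjusted p 0.99996).

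**Figure D5:**
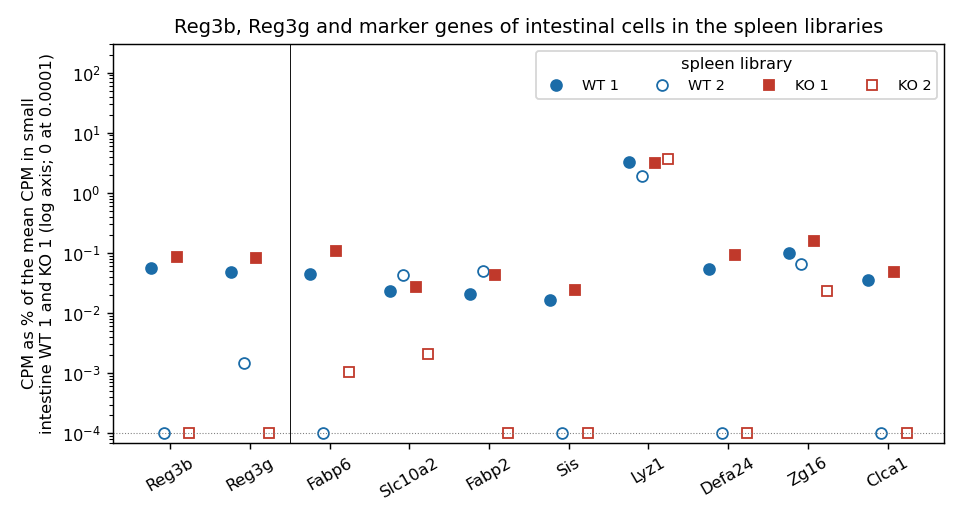
CPM of Reg3b, Reg3g and 8 marker genes of intestinal cells in the 4 spleen libraries, as a percentage of the mean CPM in small intestine WT 1 and KO 1 (log axis, 0 drawn at 0.0001). Reg3b and Reg3g lie between 0.0478% and 0.0864% in the libraries numbered 1, beside Fabp6 and Defa24; Lyz1, at 1.91% to 3.68%, is high in all 4 spleen libraries.

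In the heart Reg3g had 173 counts (4.79 CPM) in WT 2 and 2, 2 and 4 counts in WT 1, KO 1 and KO 2, and Reg3b had 14 counts in WT 2, a ratio of 0.0809 where the small intestine had 2.20 or more. A list of 7 airway epithelium genes was chosen after this value was seen. It summed to 116 CPM in heart WT 2 and to 38.6, 8.87 and 29.95 in WT 1, KO 1 and KO 2. Bpifa1, an airway defence protein, stood at 48.1 CPM in WT 2 against 0.126 to 1.61 in the others. Not all genes of the list shared this pattern. Scgb1a1 had 46.6 CPM in WT 2 but also 24.7 in WT 1 and 21.7 in KO 2. Sftpc was similar in WT 1 (7.24), WT 2 (6.98) and KO 2 (6.61), and Sftpb was higher in WT 1 (1.17) than in WT 2 (0.222). The 15 pancreatic acinar genes summed to 5.87 CPM in heart WT 2 and to 0.223, 0.692 and 0.239 in WT 1, KO 1 and KO 2, and Reg1 had 11 counts in WT 2 and 0 in the other three heart libraries. The part of these transcripts in the Reg3g and Reg1 values was not tested. No member passed the low count filter in heart or kidney, where 0% of genes were called in each. With no such filter Reg3g was called lower in KO heart (log2 change -4.43, edgeR adjusted p 0.01). In that fit 13 of 27983 genes tested were called, 12 of them lower. Without WT 1 the log2 change of Reg3g was -5.34. Both values rest on WT 2. In liver the Reg3b counts were 25 and 6 for WT, then 14 and 7 for KO (log2 change -0.52, SE 0.87, adjusted p 0.9995), where 0.0509% of genes were called, and in kidney it had 24 counts in WT 1 and at most 1 in the other libraries. The 15 pancreatic acinar genes, which would mark pancreas beside the gut, summed to 26.8 to 35.9 CPM in the small intestine, mostly Clps, with Ptf1a at 0 in all 4 libraries, and the 5 pancreatic islet genes to 0.881 to 3.71 CPM.

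The genes whose level over the 20 libraries was most like that of each member were found among 23159 genes by Pearson's r of log2 CPM. These values mostly reflect the split between small intestine and the other organs, which all points share. For Reg3a they were Ms4a18 (r = 0.998), Gm12146 (0.997) and Atoh1 (0.996), the secretory lineage transcription factor. For Reg4 they were Isx (0.988), an intestinal homeobox gene, Gm43745 (0.987) and Rfx6 (0.986), an endocrine transcription factor. For Reg1 they were Gm37113 (0.982), Plut (0.981) and Cyp2c66 (0.977), of which Plut had 2.02, 129, 2.20 and 101 CPM in WT 1, WT 2, KO 1 and KO 2. For Reg3b they were Defa24 (0.968), Clca4b (0.958) and Clca4a (0.957), and for Reg3g Clca4a (0.956), Wnt3 (0.953) and Slc28a3 (0.945). Clca4a, a calcium-activated chloride channel regulator, had 1051 and 830 CPM in WT 1 and KO 1 and 35.6 and 24.7 in WT 2 and KO 2, with the split by number of Reg3b and Reg3g and a smaller difference between KO and WT within each number. Among members, r was highest for Reg3a and Reg4 (0.980) and for Reg3b and Reg3g (0.958) and lowest for Reg1 and Reg3g (0.695).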

How the data were processed

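RNA-seq libraries of 5 organs from WT and Nsun6-KO mice were analysed, 2 per group (10 groups). The deposited table holds raw read counts per gene made by the authors: per the labels and the submitters' processing notes, reads were trimmed with cutadapt, mapped with HISAT2 2.1.0 to mm10 and counted over Ensembl exons (GRCm38) with featureCounts 2.0.1. The study's methods name strand and pair settings, but the command in the file header has none, so both ends of a fragment may be counted and antisense reads may be included. No count was normalized by the authors; the deposited exon length in base pairs, listed under other, was used for TPM. The kit selects poly(A) RNA.

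Counts were tested with edgeR 4.0.16 (R 4.3.3; TMM, filterByExpr, robust quasi-likelihood test) on all genes, with Benjamini-Hochberg adjustment; a gene was called at an adjusted p below 0.1 and more than 2-fold change. DESeq2 1.42.0 was an alternative, beside RLE factors, no filter, a joint fit, a replicate block and leaving out each library. The scripts were tested on simulated data. KO was compared with WT per organ, and the small intestine with the mean of the other organs (WT and KO weighted equally). Libraries numbered 2 were compared with those numbered 1 in the small intestine. Ratios of log2 CPM used a pseudocount of 0.1, and log2 CPM for correlations a prior count of 2. Pairs of coding and promoter sequences were aligned globally (Biopython 1.88; match 1, mismatch -1, gap opening -3, gap extension -1), with coding sequences from GENCODE transcripts.

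Depth was 15897446 to 44508197 counts per library. A count of 0 allows up to 3 counts, and intervals cover counting error only. Both take counts as independent and are too small if both ends of a fragment were counted. Named genes were the members, Reg3d, Extl3, Nsun6, the 2 most abundant small intestine genes of each of 12 lists (all 4 organ identity genes, of which 1 is not reported here), and the 3 nearest patterns per member; other list genes that were called, that were over 2-fold apart within both numbers, or that are named as inducers, were chosen after their values were seen. The members and lists were chosen with earlier results of these data known.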

Additional observations from a re-analysis of the deposited data

How the results depend on the processing

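In the KO comparisons the count of members called stayed at 0 under every alternative in the small intestine, liver, spleen and kidney. In heart it rose from 0 to 1 (Reg3g) with no filter on low counts, and it lay between 0 and 1 over the fits without 1 library. The 5 members called between the small intestine and other organs became at most 6 (Reg2, with no filter). The 3 members called between numbers fell to 1 without a genotype term and to between 1 and 2 without 1 library (fits chosen after seeing the data, since 3 libraries leave no residual degrees of freedom with both terms), Reg1 being called in each of these.

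Directions turned only when 1 library was left out. For KO in the small intestine Reg1 ranged from -10.52 to 9.33 on the log2 scale (9.33 without WT 2, 0.24 without KO 1) and Reg3b from -7.72 to 0.39 (0.39 without WT 1), while Reg3g ranged from -7.99 to -0.27, -0.27 being without WT 1. Reg3b ranged from -1.36 to 0.51 in liver, and in spleen Reg3b from -10.34 to 10.91 and Reg3g from -8.89 to 4.81. Reg4 between numbers ranged from -0.55 to 1.38, with a call at 1.38 without KO 1. The cause was not tested.

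The replicate block changed no call of a member (0 called in each KO comparison, 5 between organs). In the small intestine it gave -4.11 for Reg3g (SE 0.46, edgeR adjusted p 0.690) and -3.62 for Reg3b (SE 0.79, adjusted p 0.828), and 1031 genes instead of 422 had an unadjusted p below 0.05. Over all genes, deviations of libraries with the same number had r = 0.481 in the small intestine and 0.012 to 0.248 in the other organs, so with 2 pairs the numbers are shared labels and not a known pairing.

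With 2 libraries per group, differences of the size of the spread in Reg3b and Reg3g, which includes the split by number, could not be called. With the number as a block their SE was smaller, and no member was called either. Low counts limit Reg2 in the small intestine, all members in kidney and liver, and Reg1, Reg2, Reg3a and Reg4 in spleen. In heart they limit all members, except for Reg3g in WT 2 (173 counts).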
